A study of Mus musculus with 14 samples.

Results

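The G2/M genes are a module of 51 genes that are used to mark cells between the end of DNA replication and the end of division. The members were taken by name from a list for scoring the cell cycle, and all 51 were found among the 28929 gene symbols of the count matrices. They are described here by cell type in the mouse brain and retina, with most room for oligodendrocyte precursor cells (OPCs) and immune nuclei. For the account below, 39 members with a role mainly in mitosis form a core list and 12 that also serve cells outside mitosis form a broad list. The core list falls into 8 roles and the broad list into 4.

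A cell enters mitosis when the kinase Cdk1, bound to a B-type cyclin, becomes active, and the genes that build the spindle, the kinetochores and the cleavage furrow are transcribed in advance of it. Many of their promoters carry CCAAT boxes and an element called CHR. Through CHR, the DREAM and MuvB complexes hold these genes silent in resting cells and switch them on before division. In the early postnatal brain, OPCs, endothelial cells, pericytes and microglia can all divide, while neurons and photoreceptors have left the cycle.

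The study asked what loss of TGF-beta receptor signaling in endothelial cells does to the vessels and cells of the retina and brain. Nuclear RNA was sequenced with PIPseq droplets from whole retina and from a brain preparation enriched for vessel fragments. The retina set holds 1 control library and 11 libraries of Tgfbr1-CKO mice, and the brain set holds 1 control and 1 Tgfbr1-CKO library. Tgfbr1-CKO mice carry Cdh5CreER, a conditional and a null Tgfbr1 allele and received 4-hydroxytamoxifen between postnatal days 3 and 5. The controls are labelled wild type, and the paper calls the control of the brain libraries phenotypically wild type. In its counts of choroidal vessels, such controls typically carried Cdh5CreER and a conditional allele of Tgfbr1 or Tgfbr2. The sources used here do not say whether the sequenced controls received 4-hydroxytamoxifen. The published paper gives postnatal day 14 for both tissues, while the sample labels say young adult. Cdh5CreER drives recombination in endothelial cells, so the OPCs, immune cells and neurons described here are not the cells in which the conditional allele was deleted. The null allele is not confined to endothelial cells. Each brain library pools 2 brains, and how many mice each retina library holds is not stated. Both brain libraries, the retinal control and CKO replicates 1 to 7 were made with kit version 4, and CKO replicates 8 to 11 with version 5.

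The brain control library held 16649 nuclei with 49798325 UMIs and a median per nucleus of 1541. The brain CKO library held 14675 nuclei with 31033373 UMIs and a median of 1395. The retinal control held 11513 nuclei with 30989702 UMIs and a median of 1595. Apart from replicate 4, the CKO retina libraries held between 3398 nuclei (replicate 10) and 18862 nuclei (replicate 5), with medians between 1183 UMIs (replicate 6) and 4041 UMIs (replicate 9). CKO retina replicate 4 stands apart, with 104 nuclei, 90449 UMIs and a median of 613, and the levels, shares and tests of immune nuclei that include it are also given without it, apart from medians of single members. The number of cell barcodes found in more than 1 library was 2 of 31324 nuclei in brain and 10 of 77676 in retina. Levels are given as CPM, the UMIs of a gene or list scaled to all UMIs of the same nuclei. Over all retinal nuclei the broad list was at 591 CPM in the control, at 592 to 631 CPM in CKO libraries of kit version 4 without replicate 4 (1172 CPM) and at 733 to 763 CPM in those of version 5, so kit and broad level go together. UMIs were not scaled by gene length, so levels are compared between nuclei and not between genes. All intervals are exact 95% intervals and cover counting error only, not the spread between mice. Those of levels and ratios take UMIs as independent, so they are too narrow where the UMIs of a list sit in few nuclei. Upper limits for counts of 0 are set at 3 counts unless given as the end of an interval. With 1 library of each genotype in brain, no brain difference between genotypes has a test or a check by a second library.

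Tgfbr1 itself was at 89.0 CPM in the control retina and at a lowest of 71.4, a median of 78.9 and a highest of 87.0 CPM in the 10 CKO libraries without replicate 4. Replicate 4 was at 365 CPM from 33 UMIs. In brain endothelial cells (ECs) Tgfbr1 was at 69.1 CPM in the control and 62.9 CPM in the CKO library. UMIs counted per gene do not separate deleted from intact transcripts, so these levels do not check the deletion.

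In the brain, nuclei labelled microglia, pericytes, OPCs and ECs held the highest core levels of the control library, and neuron labels were among the lowest. Summed over the 39 core members, the control library held 2215 CPM in microglia (129 nuclei), 1953 CPM in pericytes (201 nuclei), 1298 CPM in OPCs (400 nuclei) and 739 CPM in ECs (2475 nuclei). The counting intervals were 1900 to 2566 in microglia, 1713 to 2218 in pericytes, 1202 to 1400 in OPCs and 717 to 761 in ECs. As few nuclei hold most core UMIs in several of these labels, the intervals are too narrow to rank them. The microglia label is not of microglia alone by its markers, given below. Next came vSMCs (vascular smooth muscle cells) at 494 CPM, the cluster labelled glia at 458, CP_6 at 244 and oligodendrocytes at 215, while astrocytes were at 87.3. The 11 neuron labels of the control library, taken as neurons by their names Glut and GABA, ranged from 12.5 to 154 CPM with a median of 79.6. The highest was Glut_20, whose broad level of 1032 CPM exceeds that of every other neuron label. Its markers are not given here. The labels come from clustering of these nuclei and the members may have taken part in it, so labels were not tested against each other.

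**Figure D1:**
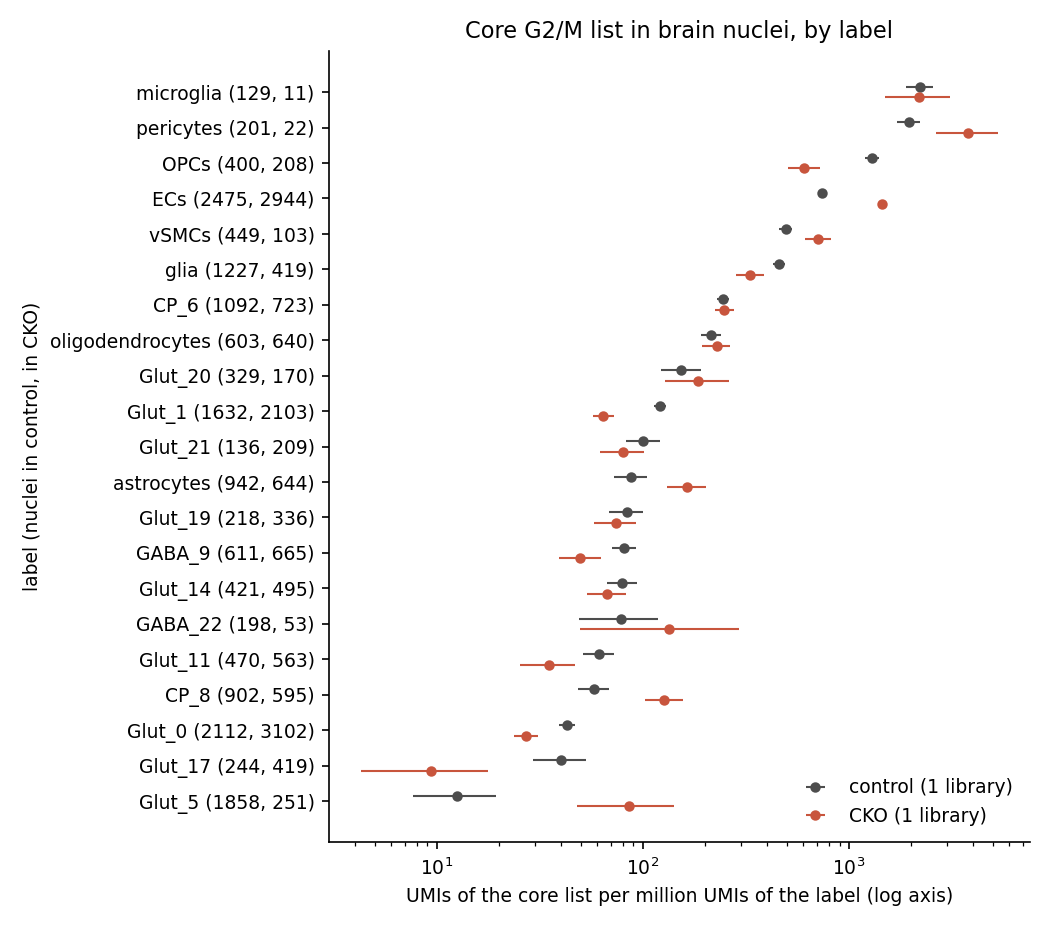
Level of the 39 core members in each brain label, in CPM on a log axis, with exact 95% counting intervals. Gray points are the control library and red points the CKO library. OPCs go from 1298 in the control to 608 in the CKO library, and ECs from 739 to 1451.

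The CKO library had another order. Pericytes were at 3799 CPM (2646 to 5283) and microglia at 2186 CPM (1495 to 3086), from only 22 and 11 nuclei, and the markers of these microglia, given below, do not support their label. Pericyte markers were at 29168 CPM in control and 15739 CPM in CKO pericytes, and endothelial markers at 1970 and 3256 CPM, and their part in the pericyte level was not tested. ECs followed at 1451 CPM, vSMCs at 708 and OPCs at 608. The 11 neuron labels ranged from 9.37 to 185 CPM with a median of 67.2, and Glut_20 was again the highest. Among labels with at least 100 nuclei in a library, single members were highest in microglia (14 of 39 core members), pericytes (10) and OPCs (7) in the control library. In the CKO library, where microglia and pericytes fall under 100 nuclei, 22 core members were highest in ECs and 9 in OPCs. The broad list had no such order, since it was at 419 CPM in control OPCs, 1132 in control ECs and 1574 in control CP_6.

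OPCs are the cycling progenitors of the oligodendrocyte lineage, and the label fits its markers in both libraries. All 9 OPC markers had UMIs, at 30829 CPM in the control and 23788 CPM in the CKO library, led by Lhfpl3. Pdgfra, the receptor through which OPCs are driven to divide, had 554 control and 165 CKO UMIs. Of the core members, 37 of 39 had OPC UMIs in the control and 23 in CKO nuclei. The 5 members without any OPC UMI were Cdk1, Psrc1, Anp32e, Tubb4b and Cks1b, and a count of 0 allows up to 5.76 CPM in the control and up to 14.4 CPM in the CKO library.

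The core list held less of the OPC UMIs in the CKO library. It had 676 UMIs in 400 control nuclei, or 1298 CPM, and 127 UMIs in 208 CKO nuclei, or 608 CPM (507 to 724). The ratio of CKO to control was 0.468 (0.384 to 0.567). The broad list had 218 and 72 UMIs, and its ratio of 0.823 (0.622 to 1.08) has an interval that spans 1. The libraries also differ in depth, since OPC nuclei had a median of 986 UMIs in the control and 616.5 in CKO nuclei, and OPC markers were lower in the CKO library. Markers of other cells differed both ways. In control and CKO OPCs they were at 599 and 1350 CPM for astrocytes, 609 and 1255 CPM for granule neurons and 757 and 1058 CPM for oligodendrocytes, but at 252 and 62.2 CPM for choroid plexus, 136 and 52.7 CPM for endothelial cells and 156 and 86.2 CPM for inhibitory neurons. The part of depth and of these markers in the core ratio was not tested. TMM scaling over all genes moves every OPC ratio by -0.35 on the log2 scale, which takes the core ratio to 0.367 and the broad ratio to 0.646 (0.488 to 0.847), below 1. In nuclei with at least 1000 UMIs the core ratio was 0.328 (0.243 to 0.435).

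Among all genes with at least 20 UMIs summed over both OPC sets, 16 core members were measured. Of these, 9 had a CKO to control ratio under 0.5, against 14.3% of all 3748 genes. None of the 16 had a ratio over 2, against 14.2% of all genes. The median ratio was 0.499 for the 16 members, also when members without CKO UMIs are set at the limit of 3 counts, and 1.05 for all genes. Since the control supplies 520679 of the OPC UMIs and the CKO library 208842, a member can reach 20 UMIs through the control alone, so these counts are a description and not support for a difference. The other 23 core and 7 broad members were under 20 UMIs.

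The kinetochore and centromere members had the lowest ratio of the 3 roles with the most control UMIs. Together the 6 genes were at 346 CPM (297 to 400) in control OPCs and 86.2 CPM (51.1 to 136) in CKO OPCs. Hjurp, the chaperone that loads the centromeric histone, had 75 control UMIs at 144 CPM and 12 CKO UMIs at 57.5 CPM, a ratio of 0.399 (0.197 to 0.739). Cenpf, a large kinetochore protein, had 35 UMIs at 67.2 CPM and 2 UMIs at 9.58 CPM, a ratio of 0.142 (0.0166 to 0.555). Cenpe, the motor that carries chromosomes to the spindle equator, had 33 UMIs at 63.4 CPM and 1 UMI at 4.79 CPM, a ratio of 0.0756 (0.00186 to 0.451). For these 3 genes the interval lies below 1. As core UMIs of OPCs sit in few nuclei, these intervals are too narrow for a comparison of genotypes. Cenpa, the centromeric histone itself, had 19 and 2 UMIs, with a ratio interval from 0.0296 to 1.09.

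Spindle motors and microtubule binders went from 375 CPM (324 to 431) to 192 CPM (137 to 261) over 13 genes. Kif11, the motor that pushes spindle poles apart, had 35 control UMIs at 67.2 CPM and 7 CKO UMIs at 33.5 CPM, a ratio of 0.499 (0.187 to 1.14). Kif20b, a kinesin of late mitosis, had 23 UMIs at 44.2 CPM and 8 UMIs at 38.3 CPM, a ratio of 0.867 (0.335 to 2.01). Neither difference exceeds counting error. Ckap2l, a spindle protein of dividing progenitors, had 22 control UMIs and none in the CKO library, with a ratio interval that ends at 0.455.

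The mitotic chromosome group, which winds, coats and condenses chromosomes, was at 303 CPM (258 to 355) in control and 187 CPM (133 to 255) in CKO OPCs. Top2a, the topoisomerase that untangles sister chromatids, had 78 UMIs at 150 CPM and 21 UMIs at 101 CPM, a ratio of 0.671 (0.394 to 1.10). Mki67, which coats mitotic chromosomes and is the gene of the Ki-67 antigen, had 26 control UMIs at 49.9 CPM and no CKO UMI. Its ratio interval ends at 0.380. Cdca2, which brings a phosphatase to chromosomes as mitosis ends, had 22 and 6 UMIs with a ratio of 0.680 (0.226 to 1.73). Ncapd2, a condensin subunit, had 32 and 12 UMIs with a ratio of 0.935 (0.439 to 1.86).

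The smaller core roles give fewer counts. Ttk, the kinase that sets off the spindle checkpoint, had 22 and 7 UMIs, a ratio of 0.793 (0.286 to 1.92). Cdc25c, the phosphatase that activates Cdk1, had 11 and 4 UMIs. The passenger partners Birc5 and Cdca8, which hold Aurora B at centromeres, had 14 control UMIs each, and 0 and 1 in the CKO library. Cdca3, Cdc20 and Ube2c, grouped here with the ubiquitin ligase that starts anaphase, had 14 UMIs together in the control and 0 in CKO nuclei, with an interval that ends at 17.7 CPM. Ect2, which turns on the cleavage furrow, went the other way with 17 UMIs at 32.6 CPM and 12 UMIs at 57.5 CPM, a ratio of 1.76 (0.767 to 3.91). Of the 16 core members measured, 2 had a ratio above 1, Ect2 and Ckap2, and 14 a ratio below 1. Among all genes measured in OPCs, 52.4% had a ratio above 1.

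**Figure D2:**
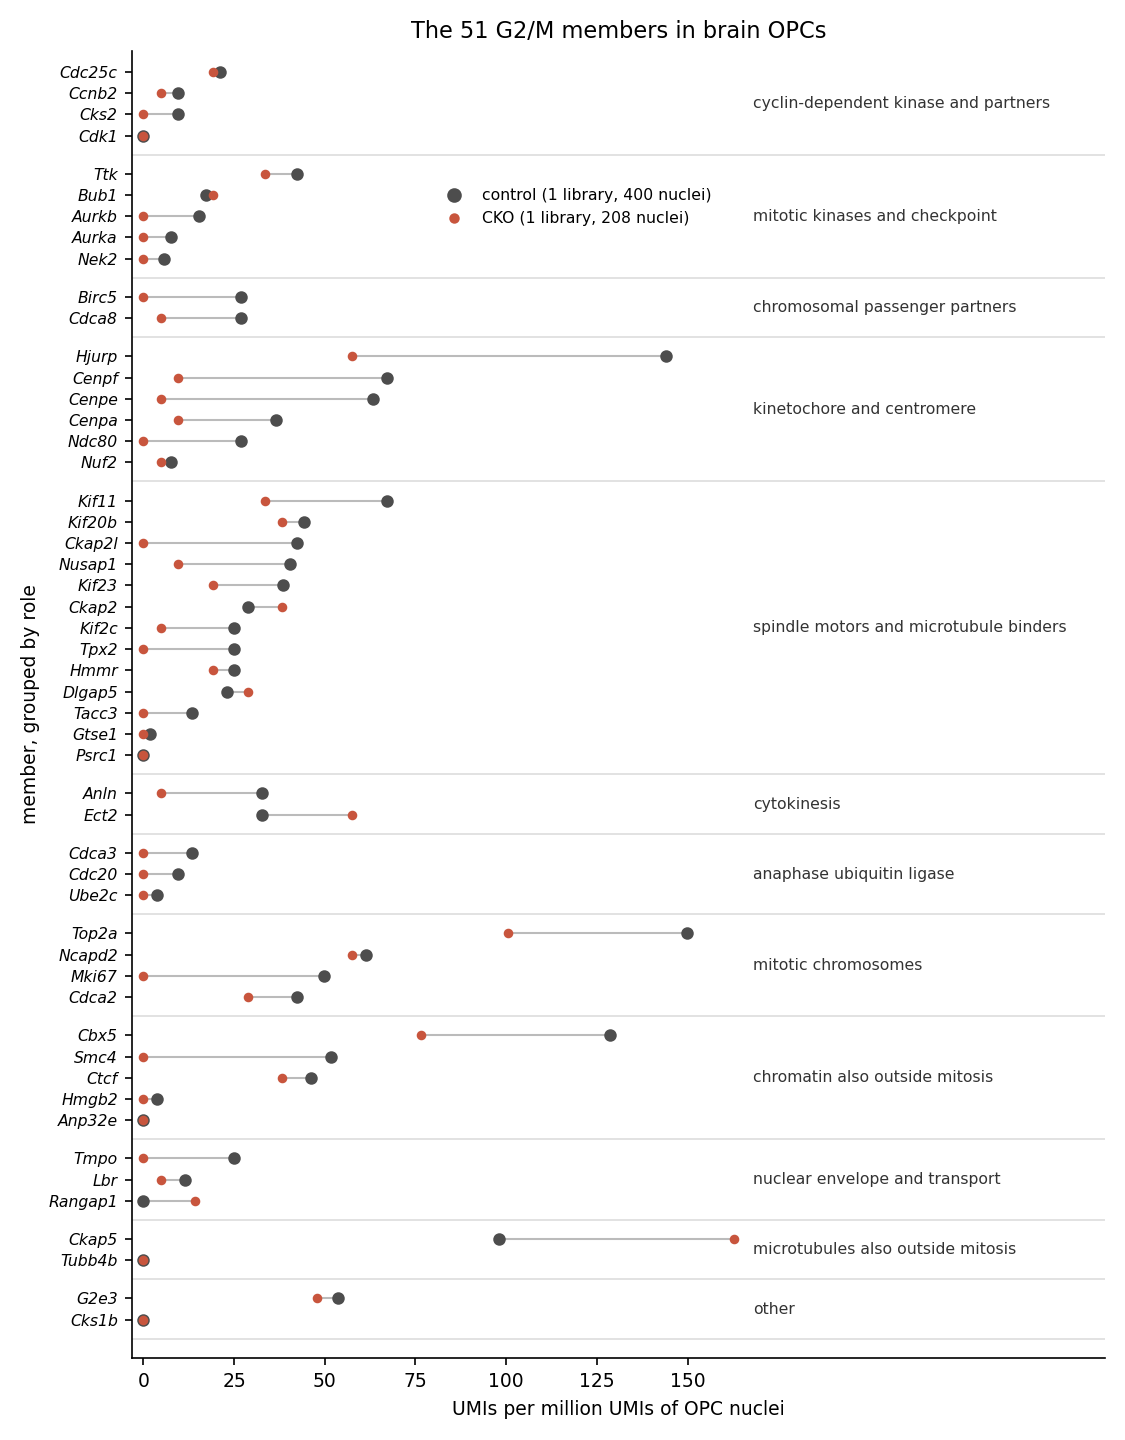
Level of each of the 51 members in brain OPCs, in CPM, grouped by role. Gray points are the control library (400 nuclei) and red points the CKO library (208 nuclei). Cenpe lies at 63.4 in the control and 4.79 in CKO nuclei, and Ckap5 at 97.9 and 163.

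The broad members with the most OPC UMIs were spread on both sides of 1. Ckap5, which speeds microtubule growth, had 51 UMIs at 97.9 CPM and 34 UMIs at 163 CPM, a ratio of 1.66 (1.04 to 2.62). With TMM scaling it was 1.30 (0.819 to 2.05), so that its interval then spans 1. Cbx5, a protein of silent chromatin, had 67 and 16 UMIs with a ratio of 0.595 (0.322 to 1.04). Smc4, a condensin subunit that acts in every dividing cell, had 27 control UMIs and none in the CKO library. Its ratio interval ends at 0.365. G2e3, a ubiquitin ligase, had a ratio of 0.890 (0.386 to 1.89) and Ctcf, the insulator protein, one of 0.831 (0.323 to 1.91). Of the nuclear envelope members, Tmpo had 13 and 0 UMIs, with a ratio interval that ends at 0.818.

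The core UMIs of OPCs sat in few nuclei. In the control library, 38 of 400 nuclei (9.50%, 6.81 to 12.8) had UMIs of at least 3 different core members, and these nuclei held 87.9% of all core UMIs of the label. In the CKO library 17 of 208 nuclei (8.17%, 4.83 to 12.8) did, holding 76.4%. At the deposited depth, 18 control nuclei had at least 10 core members and 1 had 23, while the highest CKO nucleus had 8. Control nuclei were deeper, with a median of 986 UMIs against 616.5. This count is not given at equal depth, so no difference is read from it. Rods and the neuron cluster Glut_0, both postmitotic, gave 0.211% of 6621 rods in the control retina (median 961 UMIs) and 0.663% of 2112 control Glut_0 nuclei (median 5004 UMIs).

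Shares at equal depth do not separate the genotypes. With each nucleus thinned to 1000 UMIs, 21 of 197 control OPC nuclei (10.7%, 6.72 to 15.8) and 1 of 58 CKO nuclei (1.72%, 0.0436 to 9.24) kept at least 3 core members. These intervals overlap, and the CKO count of 1 is the lowest of 20 random draws that ran from 1 to 4. At 500 UMIs the shares were 5.65% of 354 control and 5.76% of 139 CKO nuclei, which sit close together. No order of the genotypes is read from the shares. Thinned to 1000 UMIs, Glut_0 gave 0 of 1844 control and 1 of 2379 CKO nuclei.

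The core members kept each other's company in OPCs. For each member with at least 10 OPC UMIs, the share of its UMIs that lay in nuclei with at least 2 other core members was counted. Over 26 core members this share had a median of 92.6% and ran from 50.0% (Ncapd2) to 100%, and Mki67, Ect2, Birc5, Cdca8 and Cdc25c were all at 100%. The same median was 12.5% over 13 core members in Glut_0 and 6.73% over 37 in rods. Hjurp (57.5%) was the next lowest in OPCs, and both Ncapd2 and Hjurp are among the 3 core members with the most UMIs in Glut_0. Broad members in OPCs had a median of 50.3%, with Smc4 and Tmpo at 81.5% and 84.6%.

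Other cell cycle genes were also higher in the nuclei with core members. In control OPC nuclei with at least 3 core members, a list of 42 further mitosis genes was at 6512 CPM, against 316 CPM in the other OPC nuclei. In the CKO library these were 2628 and 357 CPM. S phase genes were at 2596 and 496 CPM in the control and 1501 and 604 CPM in the CKO library. Markers of OPCs that have begun to mature (Bmp4, Enpp6, Gpr17 and others) were lower in the nuclei with core members, at 870 and 2185 CPM in the control and 938 and 2069 CPM in the CKO library. OPC markers were also lower there, at 20702 and 32434 CPM in the control and 15315 and 25027 CPM in the CKO library. Nuclei with core members were deeper, with medians of 1388.5 and 955.5 UMIs in the control and 751 and 605 in the CKO library, and the part of depth in these differences was not tested.

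Over all OPC nuclei, the further mitosis genes had a CKO to control ratio of 0.555 (0.457 to 0.670), with 6 of 12 measured genes under 0.5, against 14.3% of all genes, and 0 over 2, against 14.2%. S phase genes had a ratio of 0.917 (0.755 to 1.11), with 1 of 8 under 0.5 and 2 over 2, beside the same shares of all genes. With TMM scaling the S phase ratio was 0.719 (0.592 to 0.869), below 1. The genes that hold cells out of the cycle (the Cdkn and Rb families, 10 genes) had a ratio of 1.19 (0.826 to 1.68). The lists were not tested against each other.

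**Figure D3:**
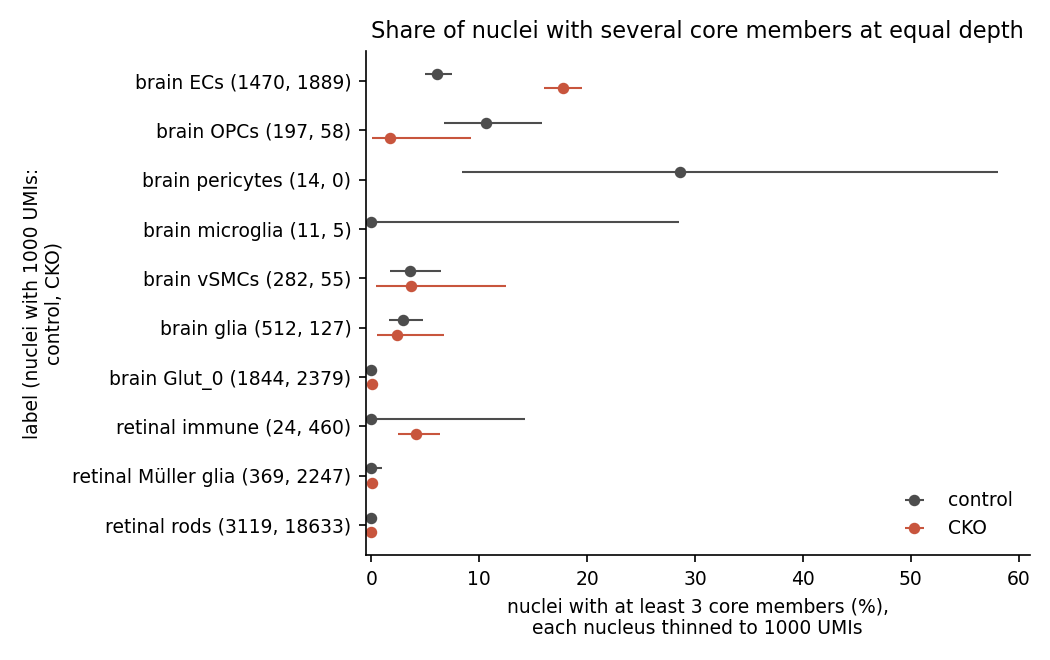
Percent of nuclei with UMIs of at least 3 different core members after each nucleus was thinned to 1000 UMIs, with exact binomial 95% intervals. Points are given for labels with at least 10 such nuclei. Brain ECs are at 6.12% in the control and 17.7% in CKO nuclei, OPCs at 10.7% and 1.72% (1 of 58 nuclei, the lowest of 20 draws that gave 1 to 4), and rods and Glut_0 under 0.1%.

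ECs serve as the brain comparison. There the core ratio was 1.96 (1.89 to 2.04). All 39 core members had a ratio above 1, against 60.6% of 13154 genes. Of the 39, 21 were over 2, against 11.2% of these genes. None was under 0.5, against 5.79% of genes. The median ratio was 2.01 over the core list and 1.10 over all genes. Cenpf was at 38.3 and 76.8 CPM in ECs, a ratio of 2.01, and Cenpe at 27.1 and 57.5 CPM, a ratio of 2.12. In OPCs both ratios were below 0.5. TMM scaling moves every EC ratio by -0.10 on the log2 scale, which takes both under 2 and leaves fewer members over 2. Mki67 had 203 and 549 UMIs in ECs. Endothelial markers went from 14654 to 11542 CPM in these nuclei, and pericyte markers, led by Rgs5, from 8390 to 7127 CPM. Fibroblast markers went from 642 to 442 CPM and macrophage markers from 156 to 76.6 CPM. Lists that rose include the B cell list, nearly all Ebf1, from 1988 to 2591 CPM. The Müller glia list, led by Glul, rose from 955 to 1210 CPM. Choroid plexus markers, nearly all Ttr, went from 1120 to 476 CPM, and the monocyte list, nearly all Fn1, from 1882 to 534 CPM. The part of these in the result was not tested. The difference between the ratios of ECs and OPCs was not tested.

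The cluster labelled glia had a lower core level in the CKO library. Its core level was 458 CPM from 793 UMIs in the control and 333 CPM from 166 UMIs in the CKO library, a ratio of 0.727 (0.611 to 0.860). Of 12 core members measured, 5 were under 0.5, against 11.1% of 9816 genes, and 0 were over 2, against 10.2%. The 5 were Cdc20, Cenpe, Ckap2, Ect2 and Kif20b, and all of them reach 20 UMIs through the control alone. With 1732742 control and 499193 CKO UMIs in this label, the count is a description only. Top2a had 79 and 25 UMIs there with a ratio of 1.10 (0.671 to 1.74). Nuclei with at least 10 core members numbered 12 of 1227 in the control and 1 of 419 in the CKO library. The share with at least 3, thinned to 1000 UMIs, was 2.93% of 512 and 2.36% of 127 nuclei. Median depth was 879 UMIs in the control and 582 in CKO nuclei, OPC markers were at 895 and 577 CPM, and oligodendrocyte markers at 231 and 433 CPM. Fibroblast markers, at 4680 and 4273 CPM, exceed astrocyte markers, at 3552 and 3436 CPM, so the name glia is not one its markers single out. Endothelial markers (1124 and 719 CPM), pericyte markers (1187 and 791 CPM) and macrophage markers (170 and 38.1 CPM) were lower in the CKO library, as were choroid plexus markers (1405 and 940 CPM). The part of these in the glia ratio was not tested.

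The label vSMCs had a higher core level in the CKO library at 708 CPM against 494, a ratio of 1.43 (1.21 to 1.69). In its control and CKO nuclei, endothelial markers were at 6778 and 7296 CPM and pericyte markers at 6583 and 6278 CPM. Both exceed smooth muscle markers, at 4383 and 3913 CPM, so the level is not credited to smooth muscle alone. Of 16 core members measured, 1 (Kif11) was over 2, against 4.70% of 10123 genes, and 2 (Cenpa and Kif23) were under 0.5, against 8.82%. Those 2 reach 20 UMIs through the control alone, which holds 1546680 UMIs against 258349. Fibroblast markers were at 1594 CPM in control and 3108 CPM in CKO vSMCs, and choroid plexus markers, nearly all of them Ttr, at 4451 and 2048 CPM. The 82 control vSMC nuclei with at least 3 core members had a median depth of 6752 UMIs, against 1214 in the other vSMC nuclei. Smooth muscle markers were at 3282 CPM in those 82 nuclei and 5425 CPM in the others, and endothelial markers at 5822 and 7683 CPM. The part of these markers and of depth in the vSMC level was not tested. The share of vSMC nuclei with at least 3 core members was 18.3% and 16.5% at the deposited depth. Thinned to 1000 UMIs it was 3.55% of 282 control and 3.64% of 55 CKO nuclei.

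In the labels microglia and pericytes a handful of nuclei carried the level. Of 129 control nuclei labelled microglia, 9 held 83.1% of the core UMIs, and 4 of them had at least 10 core members. In these 9 nuclei microglia markers were at 3660 CPM, against 7736 in the rest, macrophage markers at 3275 CPM, against 12741, and OPC markers at 5682 CPM, against 2459. The part of these markers in the level was not tested. Of 201 control pericytes, 11 held 89.9% of the core UMIs, and 7 had at least 10 core members. Pericyte markers in those 11 were at 21084 CPM, against 30001 in the rest, and pan immune markers had no UMI in either. The CKO library had 2 such nuclei of 11 microglia and 4 of 22 pericytes, too few to compare genotypes. Over the whole control label, microglia markers were at 7207 CPM and macrophage markers at 11511 CPM, with UMIs in 106 and 54 of 129 nuclei, so its core level is not credited to microglia alone. In the CKO label microglia markers were at 1776 CPM and macrophage markers at 683 CPM. In the 11 CKO nuclei OPC markers, at 6285 CPM, and astrocyte markers, at 2460 CPM, exceed the microglia markers, so their core level is not read as one of microglia. The nuclei were shallow, with medians of 402 and 548 UMIs.

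Among labels with low levels, astrocytes went from 87.3 to 164 CPM, a ratio of 1.88 (1.40 to 2.51), and CP_8 from 57.6 to 127 CPM, a ratio of 2.21 (1.67 to 2.91). In astrocytes median depth went from 1150.5 to 578.5 UMIs, oligodendrocyte markers from 159 to 406 CPM and choroid plexus markers, nearly all Ttr, from 197 to 406 CPM. In CP_8 median depth went from 1721 to 666 UMIs. Their part in the result was not tested. CP_6 (244 and 249 CPM) and oligodendrocytes (215 and 228 CPM) had close levels in the genotypes. When thinned, oligodendrocytes gave 0 of 494 control and 0 of 298 CKO nuclei with at least 3 core members, which allows up to 0.607% and 1.01%. Glut_0 was at 43.0 CPM in the control and 27.0 CPM in the CKO library. Of its core UMIs, Ncapd2, Psrc1 and Hjurp gave the most, and without these 3 genes the core list was at 15.1 and 4.58 CPM. Without the same 3 genes OPCs were at 1093 and 493 CPM. Neuron labels went both ways, with Glut_1 at 121 and 64.2 CPM, Glut_17 at 39.9 and 9.37 CPM and Glut_5 at 12.5 and 85.7 CPM. Glut_5 had only 20 and 15 core UMIs in 1858 control and 251 CKO nuclei. Glut_17 had 47 and 9, so the levels of both rest on few counts. Less the same 3 genes, Glut_1 was at 39.4 and 6.10 CPM, GABA_9 at 53.7 and 17.5 and Glut_5 at 3.14 and 68.6.

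In the retina, most labels other than immune nuclei had core levels near those of rods, and ganglion cells were higher. Control and CKO levels were 120 CPM and 108 ± 15.6 (SD, n = 10 libraries) in rods, 131 and 117 ± 20.3 (n = 10) in Müller glia and 114 and 119 ± 4.91 (n = 10) in cone bipolar cells. Retinal ganglion cells were at 195 and 198 ± 25.4 (n = 11), or 201 ± 24.4 without replicate 4, and horizontal cells at 124 and 166 ± 47.9 (n = 10). Astrocytes were at 256 and 299 ± 151 (n = 8), with a highest library of 546. Their control level rests on 8 UMIs in 12 nuclei (110 to 504), so it is not ranked against the other labels. Cones were at 131 and 114 ± 11.1 (n = 10), with the control above all 10 CKO libraries. The control lay within 1 SD of the CKO mean in these labels other than cones and cone bipolar cells. Of control ganglion cells, 12.7% had at least 3 core members at the deposited depth, and 0 of 222 did when thinned to 1000 UMIs.

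Retinal immune nuclei had higher core levels in most CKO libraries than in the control, with a wide spread. The control held 29 immune nuclei with 23 core UMIs, or 201 CPM (127 to 301). The 11 CKO libraries had a lowest level of 150 CPM (replicate 9), a median of 350 and a highest of 8785 (replicate 4), and 9 of 11 were above the control. Their mean was 1119 ± 2548 CPM (SD, n = 11), and without replicate 4 it was 352 ± 176 (n = 10) with a median of 308 and a highest of 681 (replicate 3). The control is thus within 1 SD of the mean of the other 10 libraries. The paper reports microglia in both genotypes and every other immune cell type from CKO retinas only, so the make-up of the label differs. Markers of several immune cells differed within the label. Macrophage markers were at 8.74 CPM in the control (0.221 to 48.7) and at 23.3 to 1673 CPM in CKO libraries (409 as the highest without replicate 4). Monocyte and dendritic cell markers had no control UMI, with intervals that end at 32.2 CPM, and were at 23.3 to 405 CPM and 23.3 to 147 CPM in CKO libraries. The lowest of these CKO values lie within the control intervals, and the part of the make-up of the label in its core level was not tested. In batch 1, which the control shares with CKO replicates 1 to 3, the CKO levels were 223, 266 and 681 CPM. Over all batches, rods were at 81.7 to 141 CPM in the CKO libraries that had any.

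**Figure D4:**
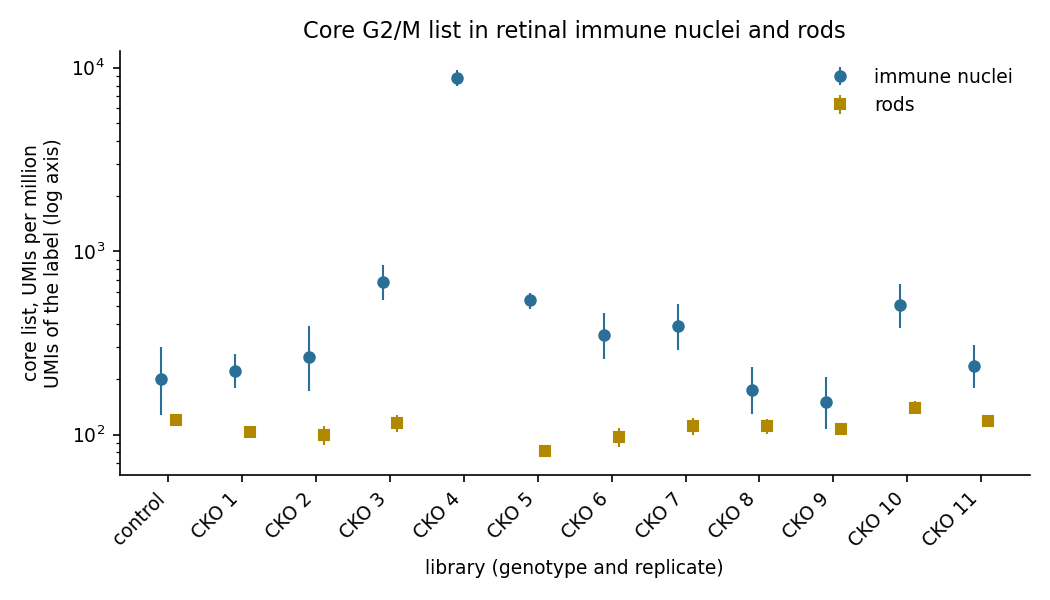
Level in CPM of the 39 core members in immune nuclei (blue) and rods (yellow) in each retina library on a log axis, with exact 95% counting intervals. Immune nuclei of CKO replicate 4 lie at 8785, those of the other CKO libraries between 150 and 681, and those of the control at 201.

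Members of every role had UMIs in CKO immune nuclei, and fewer did in the control. All 39 core members had UMIs in the 691 CKO immune nuclei, also without replicate 4 (626 nuclei) and in replicate 4 alone (65 nuclei), while 11 of 39 did in the 29 control nuclei. The control set holds 114469 UMIs, so that a member without UMIs there may be at up to 26.2 CPM. The CKO median of every core member but Hjurp lies under that limit, so no fold of these levels over the control is given for them.

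Top2a, the topoisomerase of dividing cells, had no UMI in the control and a lowest of 0, a median of 21.6 and a highest of 883 CPM over the 11 CKO libraries, or 128 without replicate 4. Mki67 had no control UMI either, with a lowest of 0, a median of 21.3 and a highest of 349 CPM, or 75.4 without replicate 4. Both had UMIs in 9 of 11 CKO libraries. Ncapd2, the condensin subunit, was at 26.2 CPM in the control and at 7.14, 21.7 and 139 CPM as lowest, median and highest in CKO libraries. Its highest without replicate 4 was 39.6. Pooled over nuclei, the mitotic chromosome group was at 26.2 CPM (5.40 to 76.6) in the control and at 85.3 CPM (74.3 to 97.5) in the CKO libraries without replicate 4.

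Kinetochore and centromere members had close pooled levels in the genotypes, at 105 CPM (54.2 to 183) in the control and 110 CPM (97.4 to 124) in the CKO libraries without replicate 4. By library these 10 ran from 50.3 to 208 CPM, with 4 above the control, and replicate 4 was at 1975 CPM. Hjurp gives most of the control level, at 78.6 CPM from 9 control UMIs, against a CKO lowest of 10.6, median of 40.9 and highest of 651 CPM (140 without replicate 4). Cenpe was at 17.5 CPM in the control and at 7.78, 23.1 and 372 CPM in CKO libraries, with 66.0 as the highest without replicate 4. Cenpf had no control UMI, and 6 of the 11 CKO libraries had none. Cenpe is among the 3 core members with the most UMIs in rods, at 23.8 CPM in control rods.

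Spindle members were at 8.74 CPM (0.221 to 48.7) from 1 control UMI and at 83.7 CPM (72.8 to 95.8) in the pooled CKO libraries without replicate 4. By library the 10 ran from 23.1 to 153 CPM, and replicate 4 was at 3277 CPM. The lowest of these lie within the control interval, and as core UMIs sit in few nuclei, the intervals are too narrow for a comparison of genotypes. Kif20b had no control UMI, a CKO median of 14.3 and a highest of 395 CPM (32.0 without replicate 4). Tpx2, which activates Aurora A on the spindle, had a median of 7.14 and a highest of 372 CPM (33.8 without replicate 4). Kif11 had a median of 9.43 and a highest of 325 CPM (28.6 without replicate 4). In cytokinesis, Ect2 was at 17.5 CPM in the control and at 0, 18.9 and 209 CPM in the CKO libraries (36.8 as the highest without replicate 4).

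The smaller roles followed with few counts. Ccnb2, a B-type cyclin, had 1 control UMI and 34 in CKO nuclei, of which 9 were in replicate 4. Ttk had 1 and 25 UMIs, with 3 in replicate 4. Cdca8 had 0 and 27, with 10 in replicate 4, and Cdc20 had 0 and 8, with 3 in replicate 4. The share of replicate 4 in these counts is large for 65 of 691 nuclei.

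Broad members differed less between libraries. The broad list was at 594 CPM in control immune nuclei and at 779 ± 50.1 CPM in the 10 CKO libraries without replicate 4, all of which were above the control. The range of kit version 5 (726 to 805 CPM) lies within that of version 4 (712 to 889 CPM). With replicate 4 (1906 CPM) the mean was 881 ± 343 (n = 11). Ctcf was at 61.2 CPM (24.6 to 126) in the control and at 95.6, 119 and 150 CPM as lowest, median and highest. Ckap5 was at 192 CPM (120 to 291) and at 149, 200 and 302 CPM (272 as the highest without replicate 4). Cbx5 was at 114 CPM and at 23.2, 96.1 and 148 CPM, Smc4 at 52.4 CPM and at 48.2, 78.5 and 372 CPM (128 without replicate 4), and Anp32e, a histone chaperone, at 26.2 CPM and at 0, 75.4 and 112 CPM. The lowest values of Cbx5 and Anp32e are those of replicate 4, and without it they are 69.0 and 38.9 CPM. Only for Ctcf do all 11 CKO libraries lie above the control among these 5. Without replicate 4, all 10 also do for Anp32e.

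No member was called between genotypes in immune nuclei. The edgeR quasi-likelihood test with the kit as covariate was run on 12563 genes, 36 of them members, with 1 control against 11 CKO libraries, and it takes the spread among CKO libraries to hold for the single control as well. It called 0 members and 0% of all genes at an adjusted p of 0.05. At an unadjusted p under 0.05 it had 0 members and 437 genes, and DESeq2 called 0 members and 0% of genes, with 1 member at an unadjusted p under 0.05. The member with the lowest p was Top2a, with a fitted log2 fold of 7.54 (SE 3.79) and UMIs in 9 of 11 CKO libraries. As Top2a had no control UMI, that fold depends on the prior count and is no bound. Members reach the minimum of 15 UMIs mostly through CKO libraries, so the signs of their folds are not counted. Without replicate 4, 31 members were in the test and edgeR called 0, with 0 at an unadjusted p under 0.05. DESeq2 then called 0 members and 0.0722% of genes, with 1 member at an unadjusted p under 0.05.

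The core UMIs of immune nuclei also sat in few nuclei. At the deposited depth, 77 of 691 CKO nuclei (11.1%, 8.89 to 13.7) had at least 3 core members and held 76.6% of the core UMIs, and 28 had at least 10, or 16 without replicate 4. Without replicate 4 these were 51 of 626 nuclei (8.15%, 6.13 to 10.6) with 69.1% of the core UMIs. In the control, 2 of 29 nuclei (6.90%, 0.846 to 22.8) did. Thinned to 1000 UMIs, 19 of 460 CKO nuclei (4.13%, 2.50 to 6.38), 15 of 453 without replicate 4 (3.31%, 1.86 to 5.40) and 0 of 24 control nuclei did. The control count of 0 allows up to 12.5%, so a difference between genotypes was not detectable at this depth. Rods at the same depth gave 2 of 18633 CKO nuclei (0.0107%) and 0 of 3119 control nuclei.

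Replicate 4 was unlike the rest in level and in nuclei. Of its 104 nuclei 65 are immune, with a median of 592 UMIs and 378 core UMIs. In it 26 of 65 immune nuclei (40.0%) had at least 3 core members and held 94.4% of the core UMIs. In these 26 nuclei the further mitosis genes were at 16658 CPM and S phase genes at 6247 CPM, against 1029 and 2731 CPM in its other immune nuclei. Microglia markers were alike in both, at 5234 and 5146 CPM, as were pan immune markers, at 7991 and 7403 CPM. Rod markers had no UMI in its immune nuclei, while the immune nuclei of the control held 5443 CPM of them. The methods of the study describe manual removal of some nuclei from replicates 4 and 5, and the part of that step and of rod RNA in the level of replicate 4 was not tested.

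In the other 10 CKO libraries, the nuclei with at least 3 core members were deeper, with a median of 5037 UMIs against 1903. Their further mitosis genes were at 1241 CPM against 345, and S phase genes at 1174 against 755. Pan immune markers were lower in them, at 1346 CPM against 2221, and rod markers about level, at 5505 against 5397. The part of depth and of rod RNA was not tested. Of the UMIs of each core member in CKO and control immune nuclei without replicate 4, a median of 73.2% lay in nuclei with at least 2 other core members (24 members), against 6.73% in rods.

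Further lists in immune nuclei had these levels. The other mitosis genes were at 314 CPM in the control and 492 ± 152 CPM in the 10 CKO libraries without replicate 4, of which 8 were above the control. S phase genes were at 646 CPM and 798 ± 85.6 CPM, with 9 of 10 above. Cell cycle exit genes were at 245 CPM and 432 ± 68.4 CPM, with 10 of 10 above. The part of the make-up of the label in these levels was not tested. In the edgeR test none of these lists had a gene called.

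In the other retinal labels tested, no member was called either. In Müller glia 30 members were among 15980 genes and 0 were called by edgeR, against 0.00626% of all genes (1 gene), with 0 members and 930 genes at an unadjusted p under 0.05. In retinal astrocytes, where 8 CKO libraries had enough nuclei, 14 members were among 8781 genes and 0 were called, against 0.0228% (2 genes), with 0 members and 423 genes at an unadjusted p under 0.05. In rods 46 members were among 18565 genes and 0 were called, against 0% of genes, with 1 member and 526 genes at an unadjusted p under 0.05. That member was Birc5, with 6 UMIs in control rods and 16 in CKO rods, a log2 fold of -2.61 (SE 0.99) and an adjusted p of 1. DESeq2 called 0 members in all 3 labels, with 0 at an unadjusted p under 0.05, against 0.632% of all genes in Müller glia, 0.0114% in astrocytes and 1.21% in rods. Over the core members in the test, the median log2 fold was -0.31 in Müller glia (18 members) and -0.12 in rods (34 members), beside 0.04 and -0.01 over all genes. In astrocytes it was 4.20 over only 3 members, beside 0.58 over all genes, with 12 nuclei in the control.

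A few single nuclei outside the immune label had many core members. A retinal astrocyte nucleus of CKO replicate 5 had 28 of 39 core members in 10840 UMIs, and a nucleus labelled horizontal cell in CKO replicate 9 had 27 in 46861 UMIs. A cone nucleus of CKO replicate 5 had 18 in 11633 UMIs, and a nucleus labelled as GABA amacrine cell in CKO replicate 8 had 17 in 30915 UMIs. Among Müller glia, 2 nuclei of CKO replicate 7 had 11 and 10 core members in 2031 and 1222 UMIs. These nuclei were picked out after their values were seen. Cones, amacrine and horizontal cells are postmitotic, and most of these nuclei are deep, though not the 2 of Müller glia. Whether any is a dividing cell of its label was not tested, and droplets with more than 1 nucleus were not tested for. Ganglion cells had 2 CKO nuclei and 1 control nucleus with at least 10 core members, all deep. The control holds only 12 astrocyte, 70 horizontal cell and 402 Müller glia nuclei, against 220, 471 and 2670 in CKO libraries, so its count of 0 such nuclei in these labels does not show a difference.

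Overlap in the genome limits some members. Of the 51 members, 17 overlap a coding gene on the opposite strand, and since the strand use of the counting is not stated, reads of such pairs cannot be told apart here. Cdk1 overlaps Ank3, which had 1241 CPM in the retina against 0.221 CPM for Cdk1. Hjurp overlaps Trpm8 and Mroh2a, which had at most 1.36 CPM in the retina and 1.25 CPM in the brain, against 38.8 and 42.0 CPM for Hjurp.

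The promoters of members share sequence features that the choice by name did not use. RefSeq windows from 250 bases before to 50 after the start (build GRCm38.p6) were found for 45 of 51 members, and not for Cdc25c, Aurkb, Tpx2, Dlgap5, Cdca2 and Smc4. The letters CCAAT were searched on both strands, where the other strand reads ATTGG. They occur in 26 of 34 core members (76.5%) and 8 of 11 broad members (72.7%), against 41.1% of 27025 genes. At least 2 of them occur in 61.8% of core members, against 13.3% of genes. TTTGAA, the common form of the CHR element, was found on either strand (TTCAAA on the other) in 70.6% of core members, against 20.2% of genes. In the 250 bases before the start alone it was found in 12 of 34 core members (35.3%), against 18.3% of genes. Broad members had it at a higher share, in 9 of 11 (81.8%) and, before the start, in 8 of 11 (72.7%), so it does not set the core list apart. TTTAAA, which reads the same on both strands, was found in 23.5%, against 14.9%. One or the other was found in 79.4% of core members, 69.7% of the further mitosis genes, 25.8% of S phase genes and 30.6% of all genes. CCAAT was found in 67.7% of S phase genes and 66.7% of the further mitosis genes. A match to these letters is a description and not a bound site.

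The 250 bases before the start are shown for the 3 core members with the most OPC UMIs that hold both kinds of element there, Top2a and Ncapd2 of the mitotic chromosomes and Kif11 of the spindle. Hjurp, which ranks between Top2a and Ncapd2, holds 1 CCAAT and neither TTTGAA nor TTTAAA there and is not shown. Capitals mark CCAAT or ATTGG and TTTGAA or TTCAAA, and each sequence reads 5′ to 3′ toward the start of the gene. Top2a lies at chr11:99024190-99024439 on the minus strand, Ncapd2 at chr6:125191587-125191836 on the minus strand and Kif11 at chr19:37376132-37376381 on the plus strand. Top2a holds 6 CCAAT matches, Ncapd2 3 and Kif11 1.
Top2a: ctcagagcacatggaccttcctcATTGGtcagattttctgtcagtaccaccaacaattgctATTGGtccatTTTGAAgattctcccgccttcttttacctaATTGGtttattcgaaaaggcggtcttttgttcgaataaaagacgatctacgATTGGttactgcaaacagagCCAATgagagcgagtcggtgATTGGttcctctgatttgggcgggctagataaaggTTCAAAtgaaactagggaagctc
Ncapd2: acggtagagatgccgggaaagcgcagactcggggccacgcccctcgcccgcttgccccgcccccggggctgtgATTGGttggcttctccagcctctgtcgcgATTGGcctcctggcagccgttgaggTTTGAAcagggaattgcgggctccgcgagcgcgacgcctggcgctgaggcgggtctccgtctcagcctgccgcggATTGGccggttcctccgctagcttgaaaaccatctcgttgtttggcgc
Kif11: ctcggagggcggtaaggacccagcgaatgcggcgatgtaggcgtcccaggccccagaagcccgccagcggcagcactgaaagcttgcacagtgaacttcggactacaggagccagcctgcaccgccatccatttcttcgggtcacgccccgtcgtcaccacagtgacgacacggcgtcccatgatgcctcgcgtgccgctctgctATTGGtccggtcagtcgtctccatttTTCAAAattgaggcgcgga

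These results have limits. The brain rests on 1 library of each genotype with 2 pooled brains, so genotype and library cannot be told apart there. The retina has 1 control, with 29 immune nuclei, and replicate 4 decides the mean of the CKO libraries. Core UMIs concentrate in few nuclei, and the share of such nuclei moves with depth. Counts of nuclear RNA show neither protein nor the rate of division. Nuclei are labelled by clusters to which cell cycle genes may contribute, and RNA from other cells in a droplet remains possible.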

How the data were processed

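Deposited UMI counts, cell type labels, batches and kits were used as given, and reads were not reprocessed. The methods of the study name CellBender for background and SOLO with curation by hand for doublets. No doublet caller was run here, and whether the deposited counts are those after background removal is not stated. The published methods name GRCm39 for alignment while the sample labels name mm10. UMIs were summed per label and library and divided by all UMIs of the same nuclei. Members and lists were chosen with earlier results of these data known. For equal depth, each nucleus was thinned without replacement to 1000 or 500 UMIs in 20 seeded draws, and shallower nuclei were left out. Exact Poisson intervals were used for levels, Clopper-Pearson intervals for shares and exact conditional binomial intervals for ratios. Retinal labels with at least 10 nuclei per library were tested with edgeR 4.0.16 (quasi-likelihood, TMM, kit as covariate, at least 15 UMIs, Benjamini-Hochberg adjustment over all tested genes) and with DESeq2 1.42.0 beside it. Sums, thinning and intervals were made in Python 3.11.15 with pandas 2.3.3, scipy 1.17.1 and numpy 2.4.6, figures with matplotlib 3.10.9, and tests in R 4.3.3.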

Additional observations from a re-analysis of the deposited data

Results flagged for a closer look

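Broad members in retinal immune nuclei had 1 library that stands apart among the 10 CKO libraries without replicate 4. CKO replicate 3 was at 889 CPM, the highest of the 10. A Dixon rule that picks such a library by chance in about 1 of 20 groups was applied to 20 groups, and 1 stood apart. The cause was not tested.

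The core list ran in opposite directions in 2 brain labels, with a CKO to control ratio of 0.468 in OPCs and 1.96 in ECs. The difference between the ratios was not tested.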

How the results depend on the processing

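Of 82 alternative settings, 64 count as the same result, 18 moved it and 0 reversed it. Same means within the 95% interval of the value for ratios and shares, within 1 SD for the immune mean, and again 0 for a call of 0 members. The cause of each move was not tested. The 64 include 34 counts of 0 members from fits that called few genes of any kind and 8 immune means, and neither is a sign of stability. All 34 alternative fits in 4 retinal labels called 0 members, and among them DESeq2 called 1.21% of all genes in rods and 0.632% in Müller glia. Some alternatives were chosen after seeing the data.

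The core ratio in OPCs of 0.468 became 0.367 with TMM factors and 0.328 in nuclei with at least 1000 UMIs. The EC ratio of 1.96 became 1.83 with TMM factors, 2.08 as a mean over nuclei and 1.55 with all 51 members. The S phase ratio in OPCs of 0.917 became 0.719 with TMM factors.

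The share of control OPC nuclei of 10.7% became 5.65% when thinned to 500 UMIs. The CKO share of 1.72% (1 of 58 nuclei, the lowest of 20 draws that gave 1 to 4) became 10.3% with at least 2 members and 0% with at least 5, and its values of 5.76% at 500 UMIs and 8.17% at the deposited depth count as the same only because its interval is wide. The control EC share of 6.12% became 9.90% at the deposited depth, 2.72% at 500 UMIs, 10.6% with at least 2 members and 3.13% with at least 5. The CKO EC share of 17.7% became 26.9% at the deposited depth, 8.65% at 500 UMIs, 26.9% with at least 2 members and 8.10% with at least 5. The CKO immune share of 4.13% became 11.1% at the deposited depth.

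Replicate 4 decides the immune mean, which was 1119 CPM with it and 352 without it. Every alternative mean lies within the SD of 2548, which replicate 4 makes, so this range is a wide one. No paired analysis was possible because no library of one genotype is matched to a library of the other.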

Other observations

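Cell cycle exit genes in retinal immune nuclei were at 245 CPM in the control, from 29 nuclei with 114469 UMIs. All 10 CKO libraries without replicate 4 were above it, at 432 ± 68.4 CPM, and edgeR called none of the genes. Macrophage, monocyte and dendritic cell markers also differed in this label, and their part was not tested.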
